A study of Mus musculus with 8 samples.

Results

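Nuclear genes for mitochondrial ribosomal proteins, 76 in number, were followed as 3T3-L1 cells, mouse preadipocytes grown as an established line, became fat cells. They are the rows of the deposited table whose symbol begins with Mrpl or Mrps and a number and whose mean over the 8 libraries was at least 10, and they make up 76 of the 14647 genes that passed this filter and were tested. All 76 rows with such a symbol passed it. By the present names of the proteins, 49 belong to the large subunit of the mitochondrial ribosome, counting Mrps30 and Mrps18a despite their symbols, and 26 to the small subunit. Mrps36 belongs to neither, because its product was later assigned to the 2-oxoglutarate dehydrogenase complex. The 76 genes lie on 17 chromosomes.

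The mitochondrial ribosome translates the few mRNAs of the mitochondrial genome, which encode core subunits of the respiratory chain and of ATP synthase. Its rRNAs come from mitochondrial DNA, while its proteins are encoded in the nucleus, made in the cytosol and imported, some belonging to families shared with bacterial ribosomes and others occurring only in mitochondrial ribosomes. White fat cells need mitochondria for fatty acid synthesis and oxidation, and the organelle is known to be built up as 3T3-L1 cells turn into fat cells.

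The study measured mRNA at 4 stages, with 2 libraries per stage. Cells were taken while growing exponentially (proliferation), after 48 hours at confluence (quiescence), 10 hours after addition of an adipogenic cocktail (clonal expansion), and 6 days after that addition (differentiation). The cocktail combined insulin, which the labels put at 5 µg/µl, with isobutylmethylxanthine at 0.25 mM and the glucocorticoid dexamethasone at 1 µM, was left on for 48 hours and was followed by insulin alone, and the first 2 stages did not receive it. All libraries came from 1 cell line, with each stage represented in experiments 1 and 2. Whether these were grown separately is not said, so p-values here reflect spread among libraries that could be technical. Values are pseudo-counts, reads per gene adjusted by the authors to a common library size.

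The pseudo-counts summed to between 122413000 and 151529000 per library. All 10 adipocyte markers, such as Adipoq and Fabp4, were higher at differentiation than at quiescence (limma, adjusted p under 0.05), with a summed share of 3.36% and 3.54% of all pseudo-counts at differentiation, against 0.116% and 0.111% at quiescence. All 5 cycling-cell markers, such as Mki67 and Top2a, were lower at differentiation than at clonal expansion. Of the marker lists of other cells, 3 macrophage and blood genes, 3 endothelial genes, 2 epithelial genes and 1 muscle gene passed the filter. The macrophage and blood list summed to at most 0.00196% of a library and the endothelial list to at most 0.000233%. The defining genes Ptprc and Emr1 stayed at or below 2.73 pseudo-counts, and Epcam was at 0 or nearly so in every library. The epithelial genes that passed were keratins, of which Krt18 had 1712 and 801 pseudo-counts at differentiation, against 0.894 and 2.81 at quiescence. The part of these markers in the results was not tested.

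As a whole the mitochondrial ribosomal protein mRNAs were low in dividing and resting preadipocytes, increased within hours of the cocktail and were highest in fat cells. Their summed share of all pseudo-counts was 0.250% and 0.261% in proliferating cells, 0.250% and 0.208% in quiescent cells, 0.314% and 0.293% during clonal expansion, and 0.402% and 0.395% after differentiation. Both libraries of clonal expansion lay above all 4 earlier ones, and both libraries of differentiation lay above clonal expansion. The median member had 6906 and 6721 pseudo-counts at differentiation, against 3794 and 3196 at quiescence. In bulk RNA such as this, a change in RNA per cell cannot be told apart from a change in the mix of cells.

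**Figure D1:**
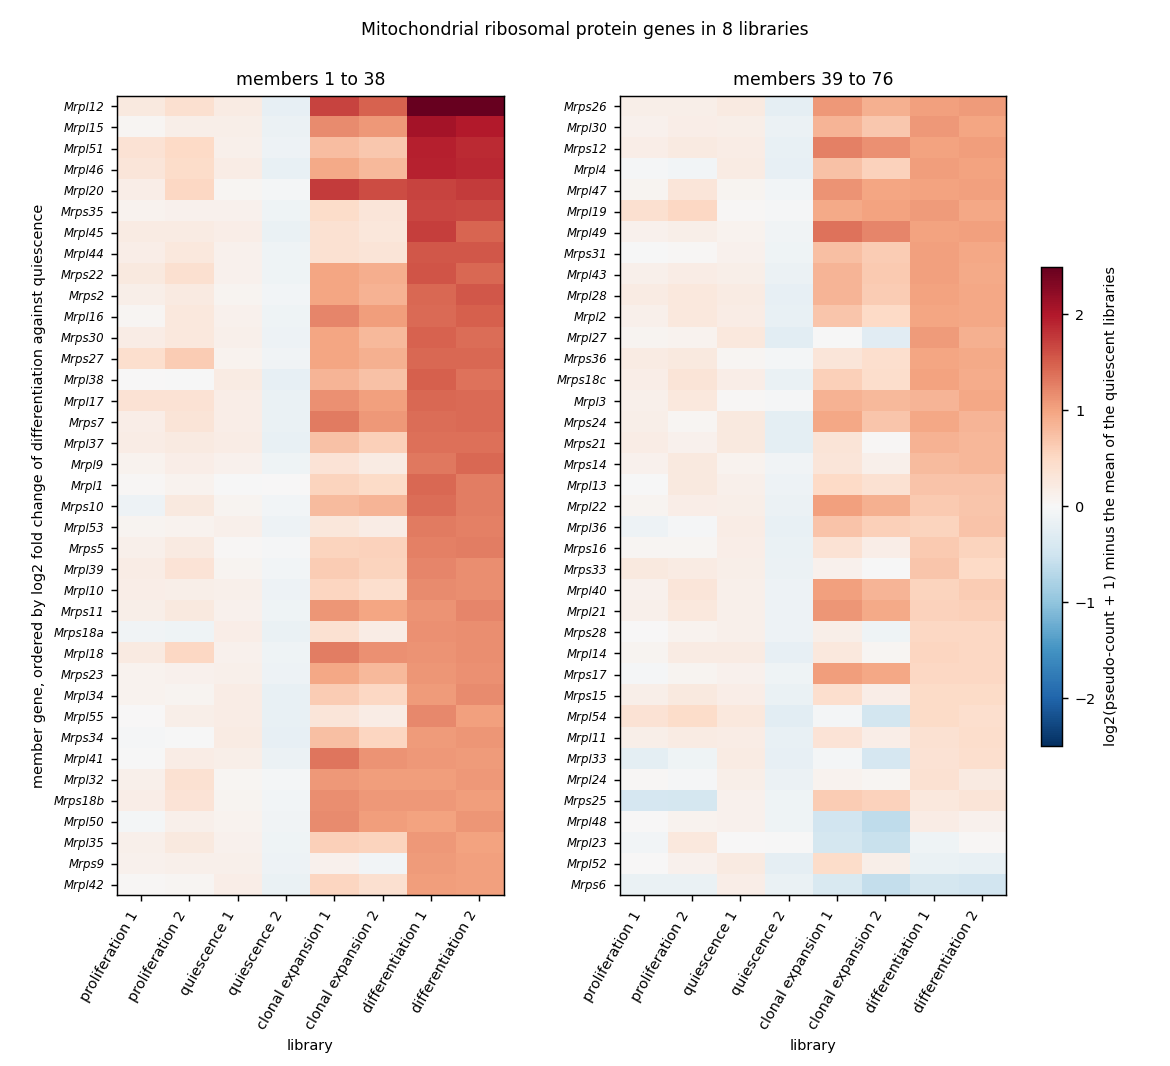
Each row is 1 of the 76 mitochondrial ribosomal protein genes, ordered by the log2 fold change of differentiation against quiescence, and each column is 1 library, in stage order; colour gives log2(pseudo-count + 1) minus the mean of the 2 quiescent libraries. The upper rows, led by Mrpl12, Mrpl15 and Mrpl51, darken in both later stages, and Mrps6 at the bottom is below quiescence in both.

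Between quiescence and proliferation few members moved. Of 76 members 1 was higher and 4 were lower at quiescence at an adjusted p under 0.05 (limma on log2(pseudo-count + 1), adjusted over all genes tested), where 11.9% and 11.8% of all genes tested were called higher and lower. The median log2 fold change over the members was -0.15, against -0.01 over all genes, and 9 of 76 had a change above 0. Mrps25, a mitochondria-specific small-subunit protein, had 5853 and 5075 pseudo-counts at quiescence, against 4086 and 4031 at proliferation, a log2 fold change of 0.43 (SE 0.10, adjusted p = 0.0147). Mrps27, an RNA-binding pentatricopeptide repeat protein, had 2831 and 2533 at quiescence, against 3587 and 4178 at proliferation (log2 fold change -0.53, SE 0.11, adjusted p = 0.00827). In both genes the libraries of the 2 stages did not overlap, which adds no support because they were picked for large called changes. Mrpl19, Mrpl51 and Mrpl17, the other three lower members, had log2 fold changes of -0.46, -0.43 and -0.37 with adjusted p of 0.00847, 0.0232 and 0.0489. None of these 5 calls was kept under every alternative setting, and without the second proliferating library no member was called.

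The 2 quiescent libraries themselves differed across the members. Quiescence 2 was lower than quiescence 1 in 75 of 76 members, with a median log2 difference of -0.27, and clonal expansion 2 was lower than clonal expansion 1 in 72 of 76, with a median of -0.13. At quiescence the same difference had a median of -0.26 over the shortest 20% of all genes tested by transcript length and 0.24 over the longest 20%. The members are short: their median transcript length was 1225 nt, against 2765 nt over all genes tested, and 61 of 76 lay below that median. The part of this difference in the results was not tested beyond 2 alternatives. With a trend on transcript length removed from each library, the median log2 fold change of the members was 0.65 for clonal expansion against quiescence, as without it, and 0.28 for differentiation against clonal expansion, against 0.41 without it. Leaving out quiescence 2 moved the median of quiescence against proliferation to -0.02.

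**Figure D2:**
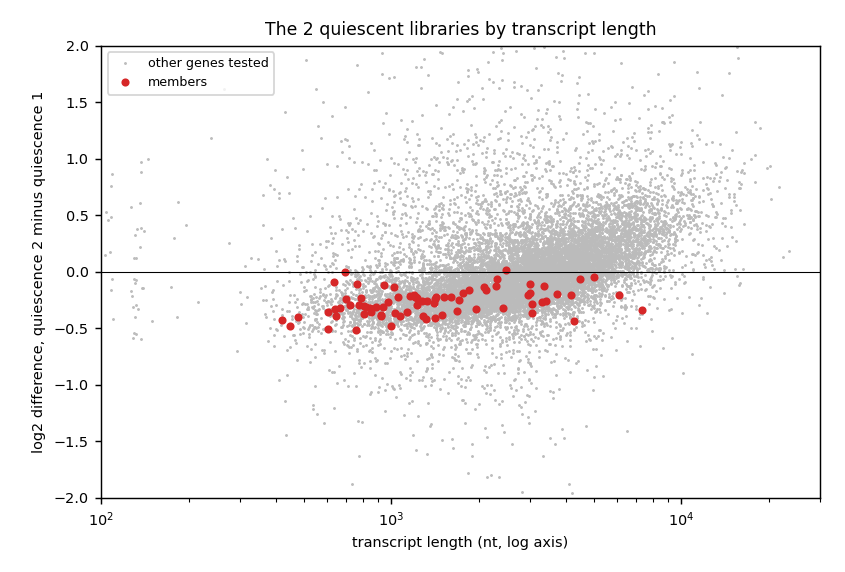
The y axis gives the log2 difference of quiescence 2 minus quiescence 1 for each gene tested (grey) and for the 76 mitochondrial ribosomal protein genes (red), and the x axis its transcript length in nt on a log axis; 143 genes, none of them members, lie outside the plotted range. The members sit at the short end, and 75 of the 76 lie below 0.

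Clonal expansion against quiescence showed the first broad increase. Of 76 members 56 were higher and 2 lower at clonal expansion, where 34.4% of all genes were called in each direction. The median log2 fold change was 0.65 over the members, a fold of 1.57, against -0.01 over all genes, and 70 of 76 members had a change above 0. With libraries scaled to the same total, 3768 of all genes were called higher and 6302 lower, against 5038 and 5033 as deposited, with a median of -0.24 over all genes; the members then had a median of 0.415, with 47 called higher and 5 lower. Mrpl20, a family whose bacterial member binds rRNA early in assembly, had 9573 and 8740 pseudo-counts at clonal expansion, against 2951 and 2733 at quiescence. This was the largest change of a member in the comparison, 3.22-fold (log2 fold change 1.69, SE 0.13, adjusted p = 2.12e-06). Mrpl12, the stalk protein that recruits translation factors and is also known to bind the mitochondrial RNA polymerase, had 16793 and 14448 at clonal expansion, against 6041 and 4524 at quiescence (2.98-fold, adjusted p = 6.49e-06). Next came Mrpl49 and Mrpl41, both mitochondria-specific large-subunit proteins, at log2 fold changes of 1.29 and 1.23, and Mrpl18 of the central protuberance at 1.21. Reads of Mrpl18 are uncertain in part, since the libraries do not mark strand. In the GENCODE M21 gene models 10.1% of its exon bases are shared with Tcp1 on the opposite strand. The mm9 spans listed for Mrpl18 and Tcp1 do not overlap. Tcp1, a subunit of the cytosolic chaperonin, had a log2 fold change of 1.19 in this comparison.

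The 2 members lower at clonal expansion were Mrpl48 and Mrps6. Mrpl48 of the central protuberance had 1094 and 981 pseudo-counts at clonal expansion, against 1629 and 1414 at quiescence (log2 fold change -0.55, SE 0.13, adjusted p = 0.00334). Mrps6, a small-subunit protein of a bacterial family, had 21636 and 18777 at clonal expansion, against 31536 and 25298 at quiescence (log2 fold change -0.49, SE 0.12, adjusted p = 0.0050). Both calls were lost in 1 alternative each: Mrpl48 had an adjusted p of 0.0502 after quantile normalization, and Mrps6 one of 0.0538 without the second library of clonal expansion. In the GENCODE M21 gene models Mrps6 shares 10.4% of its exon bases with Slc5a3, a myo-inositol transporter gene on the same strand. The mm9 spans listed for Mrps6 and Slc5a3 do not overlap. Slc5a3 had 27417 and 34947 pseudo-counts at clonal expansion, against 56276 and 87340 at quiescence, a log2 fold change of -1.18. How far reads of Slc5a3 enter the Mrps6 values was not tested.

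From clonal expansion to differentiation the increase went on in many members and turned in a few. Of 76 members 44 were higher and 6 lower at differentiation, where 36.8% and 36.2% of all genes were called higher and lower. The median log2 fold change was 0.41 over the members and 0.00 over all genes. Mrps35, a mitochondria-specific protein of the small subunit, had 10277 and 10118 pseudo-counts at differentiation, against 4444 and 3977 at clonal expansion, 2.43-fold (log2 fold change 1.28, SE 0.11, adjusted p = 2.82e-06). Mrpl45, which holds the ribosome to the inner membrane at the mouth of the exit tunnel, had 13113 and 10929 at differentiation, against 5201 and 4824 at clonal expansion (2.39-fold, adjusted p = 1.25e-05). Mrpl44, its neighbour with an RNase III-like fold, had 6567 and 6617 at differentiation, against 2913 and 2805 at clonal expansion (2.31-fold). Mrpl51 and Mrpl27, whose bacterial relative L27 reaches into the peptidyl transferase centre, followed at 2.26-fold and 2.18-fold. In all 5 genes both libraries of differentiation lay above both of clonal expansion. They were picked for the largest called rises, so this adds no support to the calls.

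The 6 members lower at differentiation than at clonal expansion were Mrpl52, Mrps17, Mrpl21, Mrpl40, Mrps25 and Mrpl49. Mrps17, an rRNA-binding protein of the small subunit, had 7460 and 7477 pseudo-counts at differentiation, against 10732 and 10243 at clonal expansion (log2 fold change -0.49, SE 0.11, adjusted p = 0.00182). Its call was the 1 lower call of the 6 that every alternative kept. Mrpl52 of the central protuberance had 3273 and 3226 at differentiation, against 5094 and 4100 at clonal expansion (log2 fold change -0.49, adjusted p = 0.0153). Mrpl21, Mrpl40, Mrps25 and Mrpl49 had log2 fold changes of -0.44, -0.35, -0.32 and -0.28. Except for Mrpl52, these genes had risen at clonal expansion: 5 members were called higher there and then lower at differentiation. In the GENCODE M21 gene models Mrps25 shares 69.8% of its exon bases with Nr2c2 on the opposite strand, so its values are uncertain. The mm9 spans listed for Mrps25 and Nr2c2 do not overlap. Nr2c2, an orphan nuclear receptor gene, was called in no stage comparison and had 4159 and 9796 pseudo-counts in the 2 quiescent libraries.

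**Figure D3:**
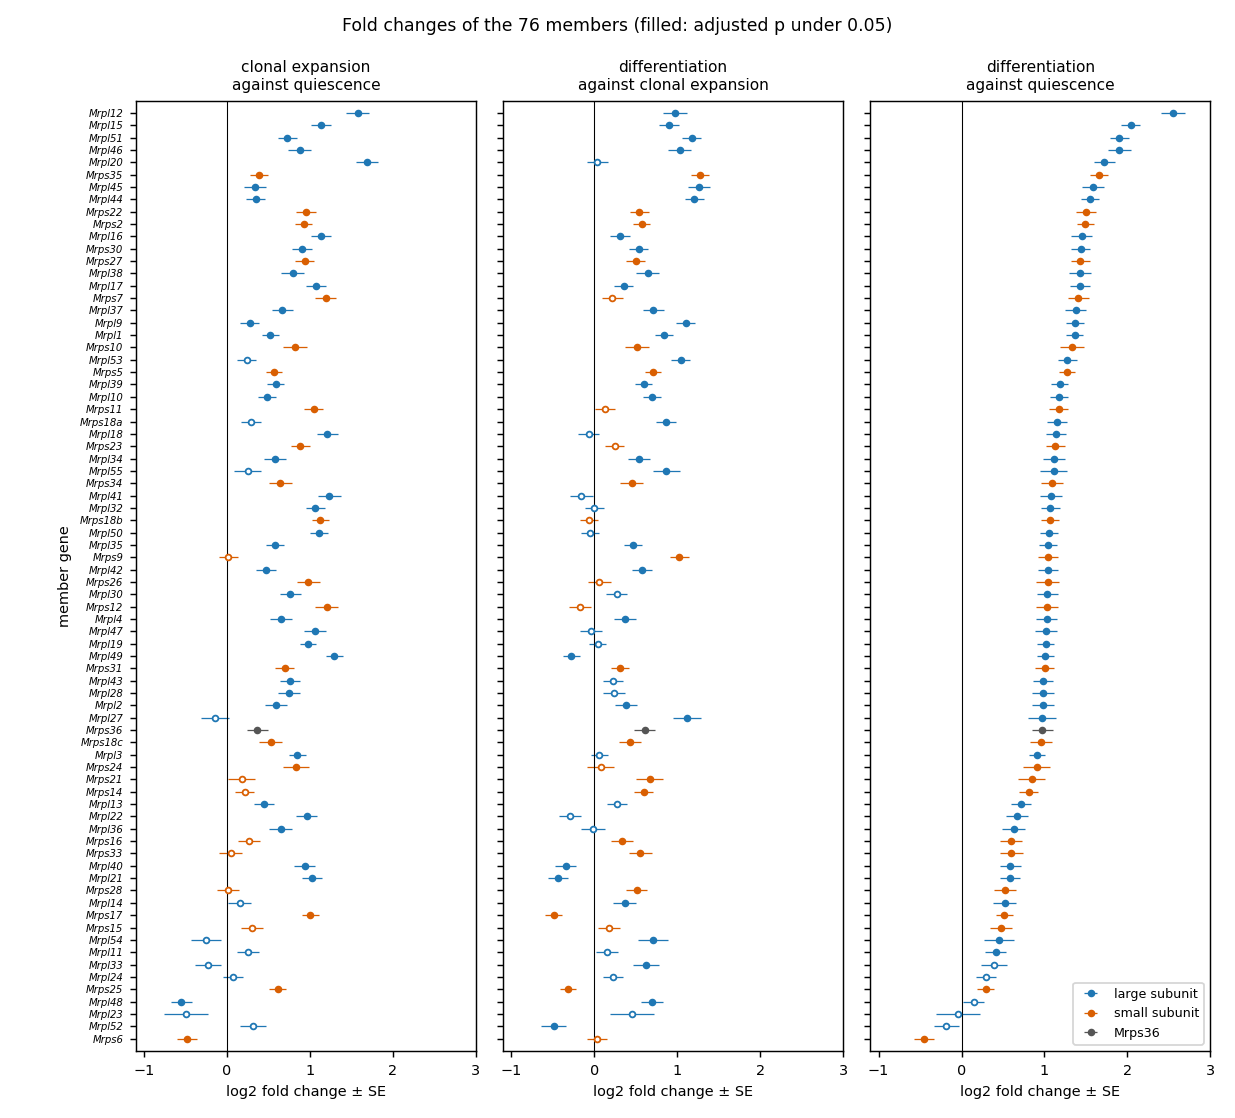
Points are log2 fold changes with standard errors (x axis) of the 76 members (rows) in 3 comparisons, coloured by subunit, filled at an adjusted p under 0.05. In the right panel 70 filled points lie above 0, with Mrpl12 at 2.55 at the top and Mrps6 at -0.45 at the bottom.

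Over the whole course, differentiation against quiescence, nearly all members were higher. Of 76 members 70 were higher and 1 lower at differentiation, where 33.4% and 32.9% of all genes were called higher and lower, 66.3% in either direction. The median fold over the members was 2.06 (log2 1.04), against a log2 median of 0.01 over all genes. Scaled to the same total, 3795 of all genes were called higher and 6314 lower, against 4892 and 4825 as deposited, and 64 members were higher and 2 lower. Mrpl12 had 30932 and 30319 pseudo-counts at differentiation, against 6041 and 4524 at quiescence, 5.86-fold (log2 fold change 2.55, SE 0.14, adjusted p = 1.65e-07). Mrpl15, a protein bound deep in the large-subunit rRNA of bacteria, had 14640 and 13657 at differentiation, against 3795 and 3121 at quiescence (4.11-fold, adjusted p = 2.13e-07). Mrpl51, Mrpl46 and Mrpl20 followed at 3.75-fold, 3.74-fold and 3.30-fold. Mrps6 alone was lower, with 20910 and 20356 at differentiation, against 31536 and 25298 at quiescence (log2 fold change -0.45, SE 0.12, adjusted p = 0.00776), and this call was lost without the second library of differentiation (adjusted p = 0.0506). The 5 members not called were Mrpl23, Mrpl24, Mrpl33, Mrpl48 and Mrpl52.

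Differentiation against proliferation gave a similar picture with other baseline libraries. Of 76 members 69 were higher and 0 lower at differentiation (limma), where 34.5% and 33.3% of all genes were called higher and lower, 67.8% in either direction, and the median log2 fold change was 0.90. Scaled to the same total, 3760 of all genes were called higher and 6518 lower, against 5051 and 4876 as deposited, and 59 members were higher and 2 lower. Mrps6 was not called as deposited (log2 fold change -0.28, adjusted p = 0.0645) but was called lower in several alternatives. Among these were the same total (-0.555, adjusted p = 0.00161), quantile normalization (-0.465, adjusted p = 0.00502) and the length trend removed (-0.446, adjusted p = 0.000626). Mrpl12 was again the largest, at 4.70-fold (log2 fold change 2.23, SE 0.14), followed by Mrpl15 at 3.84-fold, Mrps35 at 2.97-fold, Mrpl46 at 2.87-fold and Mrpl51 at 2.78-fold. The comparisons with quiescence and with proliferation share the differentiated libraries. Over the 4 stages together the F test called 72 of 76 members, where 89.2% of all genes were called.

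Read along the 2 later steps, the members fell into several courses. At the first of these steps 34.4% of all genes were called in each direction. At the second, 36.8% were called higher and 36.2% lower. Courses were counted for the members only, so the share of all genes in each course is not known. In all, 30 members were called higher at both steps, among them Mrpl12, Mrpl15, Mrpl44, Mrpl45, Mrpl46, Mrps22 and Mrps35. Of those named, Mrpl44, Mrpl45 and Mrps35 lost their clonal expansion call under some alternatives. Scaled to the same total, Mrpl44 and Mrpl45 had log2 fold changes of 0.11 and 0.0962 at clonal expansion against quiescence (limma, adjusted p of 0.381 and 0.529). A further 21 were higher at clonal expansion and not called after it, Mrpl20 being the largest. Another 13 were not called at clonal expansion and were higher at differentiation, such as Mrpl27, Mrps9 and Mrps18a. Mrpl48 was called lower and then higher: at differentiation it had 1716 and 1640 pseudo-counts, close to its quiescent level (adjusted p = 0.341 for differentiation against quiescence). Mrpl11, Mrpl23, Mrpl24 and Mrps15 were called at neither step. A gene called at 1 step and not at the other is not shown to differ between them, since the difference of steps was not tested.

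**Figure D4:**
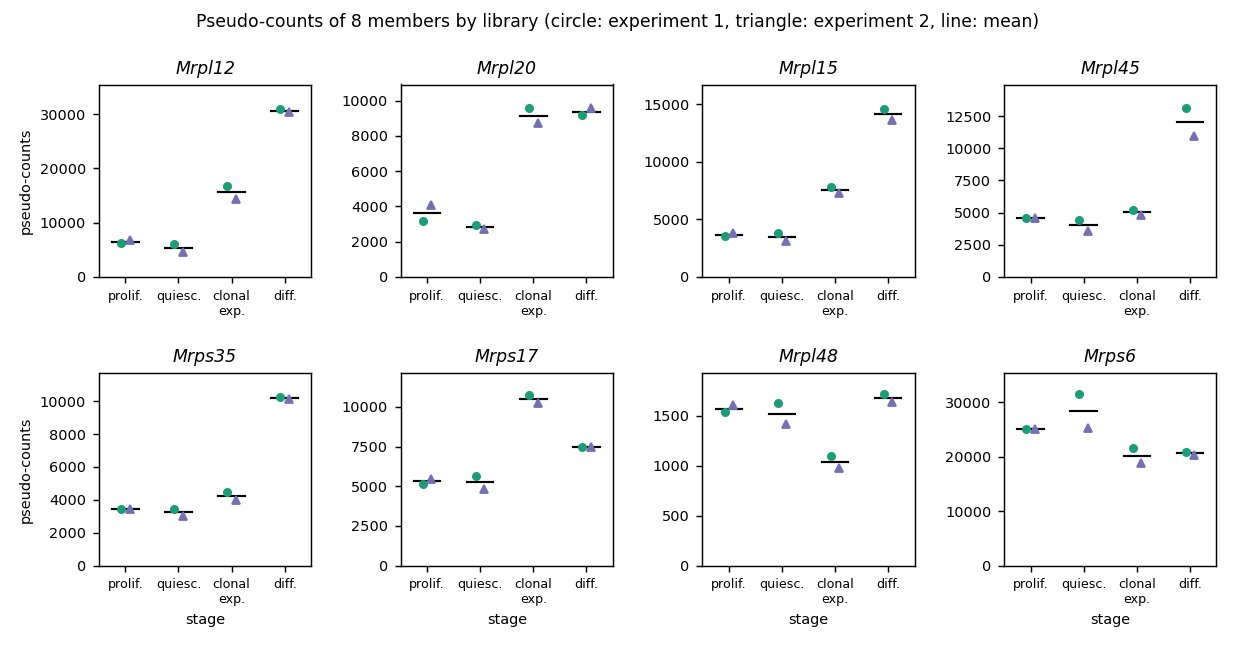
Pseudo-counts (y axis, from 0) of 8 mitochondrial ribosomal protein genes at the 4 stages (x axis) in experiment 1 (circles) and experiment 2 (triangles), with the stage mean as a line. Mrpl12, Mrpl15, Mrpl45 and Mrps35 are highest at differentiation, Mrpl20 is level over the last stages, Mrps17 is highest and Mrpl48 lowest at clonal expansion, and Mrps6 is highest at quiescence.

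Large and small subunits had medians close to each other, and their difference was not tested. The median log2 fold change of the 49 large-subunit members was 0.65 at clonal expansion against quiescence and 1.05 at differentiation against quiescence; for the 26 small-subunit members it was 0.67 and 1.04. Of the large-subunit members 44 of 49 were higher at differentiation than at quiescence, and of the small-subunit members 25 of 26. Among all genes tested, 33.4% were called higher in that comparison. The summed pseudo-counts of large over small subunit genes nevertheless had a ratio of 1.76 and 1.81 in proliferating cells, 1.65 in both quiescent libraries, 1.96 and 1.97 during clonal expansion, and 2.23 and 2.20 after differentiation. Most of that shift came with 2 genes. Mrps6 made up 11.3% and 11.1% of the small-subunit sum at differentiation, against 26.3% and 25.7% at quiescence. Mrpl12 made up 7.52% and 7.48% of the large-subunit sum at differentiation, against 3.06% and 2.79% at quiescence. Without this pair, chosen after their values were seen, the ratio was 2.21 and 2.24 in proliferating cells, 2.17 and 2.15 in quiescent cells, 2.14 and 2.15 during clonal expansion, and 2.32 and 2.29 after differentiation.

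By ancestry, 48 members belong to families shared with bacterial ribosomes and 27 are specific to mitochondrial ribosomes. Differentiation against quiescence had medians of 1.09 for the mitochondria-specific and 1.02 for the bacterial-family members. At differentiation against clonal expansion, 18 of 27 mitochondria-specific members were higher and 4 lower (median 0.54), and 25 of 48 bacterial-family members were higher and 2 lower (median 0.34). Over all genes tested, 36.8% were called higher and 36.2% lower at that step. The difference of the medians between these groups was not tested.

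Within single structures the members differed widely. In the stalk, where translation factors dock, Mrpl12 rose 5.86-fold, its anchor Mrpl10 2.26-fold and the stalk-base protein Mrpl11 1.33-fold at differentiation against quiescence. Mrpl10 had 19538 and 19364 pseudo-counts at differentiation, against 9380 and 7896 at quiescence. Mrpl11 had 5304 and 5581 at differentiation, against 4643 and 3611 at quiescence, and its call (adjusted p = 0.0189) was lost in 5 alternatives. Around the peptide exit tunnel, Mrpl45, Mrpl44 and Mrpl39 were 3.01-fold, 2.93-fold and 2.27-fold higher at differentiation than at quiescence, and 6 of the 8 tunnel members were called higher. In the central protuberance, which binds the A- and P-site tRNAs from above, 6 of 8 members were higher at differentiation than at quiescence. Mrpl46 led at 3.74-fold, while Mrpl48 and Mrpl52 were not called. Among all genes tested, 33.4% were called higher in that comparison.

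The products of the 3 members of the S18 family occupy different places in the ribosome. Mrps18a, now placed in the large subunit, had 6961 and 6133 pseudo-counts at clonal expansion, against 5988 and 4816 at quiescence (adjusted p = 0.0595), and 11914 and 11973 at differentiation. With the length trend removed, or without the first quiescent library, it was called higher at clonal expansion (adjusted p of 0.00969 and 0.00579). Mrps18b had 5512 and 5252 at clonal expansion, against 2571 and 2363 at quiescence (2.18-fold), and 5259 and 5056 at differentiation. Mrps18c, the form closest to the bacterial protein, had 3134 and 2804 at clonal expansion, against 2309 and 1841 at quiescence, and 4116 and 3898 at differentiation. All 3 were about 2-fold higher at differentiation than at quiescence, at 2.22-fold, 2.09-fold and 1.94-fold. Mrps12, which lines the decoding centre, was 2.30-fold higher at clonal expansion than at quiescence and was not called after that. Mrps36, of the 2-oxoglutarate dehydrogenase complex, had 1513 and 1470 at differentiation, against 782 and 735 at quiescence (1.97-fold, adjusted p = 7.08e-05).

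Levels of different members can be compared only per length. The lengths used are medians of GENCODE M21 transcripts and may differ from the gene models behind the values, so levels per kilobase are uncertain. Mrps26, for example, has a length of 4278 nt but a listed mm9 span from 130389493 to 130391130, which is shorter. Per kilobase of transcript, Mrps6 stood highest of the members at every stage, with 24389 pseudo-counts at differentiation, against 33589 at quiescence. Mrpl12 had 23272 pseudo-counts per kilobase at differentiation, against 4014 at quiescence. Mrpl23, of the exit tunnel, was lowest at every stage, with 34.5 to 61.4 pseudo-counts in all 8 libraries and 71.5 per kilobase at differentiation. Mrpl23 was called in no comparison of the main fit, and its direction turned under at least 1 alternative setting in each of the 5 comparisons. Other alternatives called it lower at clonal expansion than at quiescence (limma). These were the same total (-0.722, adjusted p = 0.0315) and no mean-variance trend (-0.493, adjusted p = 0.0168). With no mean-variance trend it was also called higher at differentiation than at clonal expansion (0.452, adjusted p = 0.0219). A processed copy, Mrpl23-ps1, is annotated, so its reads, like those of Mrpl48 and Mrps36, which also have annotated pseudogenes, may be split and are uncertain. Its neighbours in the ranking by pseudo-counts were Mrpl55 and Mrps36.

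In the GENCODE M21 gene models several members share exon bases with other genes, which unstranded libraries cannot separate. Of the 76 members 32 overlap exons of another gene, and 10 share at least 10% of their exon bases with a gene of the table at a mean of at least 10. The gene models behind the deposited values are not given. In the listed mm9 coordinates only Mrps27, Mrpl43, Mrps22 and Mrpl3 touch the span of another row. Mrpl46 and Mrps11 lie next to each other on opposite strands of chromosome 7. They share 173 exon bases in the GENCODE models, 12.2% of those of Mrpl46. As listed in mm9, Mrpl46 ends at 85927975 and Mrps11 begins at 85928017, so these spans do not overlap. Mrpl46 was 1.83-fold and Mrps11 2.06-fold higher at clonal expansion than at quiescence. At differentiation against clonal expansion Mrpl46 rose a further 2.04-fold, and Mrps11 had a fold of 1.09 that was not called. Mrps34 shares 63.4% of its exon bases with Mapk8ip3 on the opposite strand and 37.0% with Nme3 on the same strand. At differentiation against quiescence Mrps34 was 2.13-fold higher, while the log2 fold change was -0.40 for Mapk8ip3 and 0.74 for Nme3. The part of these overlaps in the Mrps34 values was not tested. In the mm9 coordinates that the table lists, Mrpl12 spans chr11:120345983-120350068, Mrpl20 chr4:155177727-155182938, Mrps35 chr6:146991292-147019424 and Mrps6 chr16:92099839-92112472.

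The promoters of the members were searched for short motifs of factors known to drive genes for mitochondrial proteins. RefSeq start sites of GRCm38.p6 gave 73 windows, from 250 bases before to 50 after the start, for 67 of the 76 members. Both strands were read, and matches of different motifs may overlap. The ETS core CCGGAAG, which GABPA binds, was in 32.9% of member windows, against 15.8% of windows of all genes tested and 8.86% of all windows. For the NRF1 palindrome (GCGCA, any base, then GCGC) these shares were 16.4%, 8.94% and 4.60%, and for the YY1 core AAGATGGC 16.4%, 4.01% and 2.75%. At least 1 of these was in 56.2% of member windows, against 25.7% of windows of all genes tested. The E-box CACGTG (MYC) was in 9.59% of member windows, against 9.47%, the SP1 core GGGCGG in 52.1%, against 59.4%, and CCAAT (NFY) in 41.1%, against 37.8%. The ESRRA motif TCAAGGTCA was in 0 of 73 member windows and in 0.242% of windows of all genes tested. A match is a description of the letters and not a site shown to be bound.

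The promoters of 5 genes are shown as examples of the courses above. Mrpl12 had the largest overall rise and Mrpl45 one of the largest at the last step, and both have the NRF1 motif. Mrps22 rose at both steps (ETS motif) and Mrpl20 early (E-box). Mrps6 was lower, with none of the NRF1, ETS, YY1 or E-box motifs. Other members with such courses differ in their motifs. Mrpl48, also lower at clonal expansion, has an ETS match at -34, and Mrpl52, lower at the last step, has them at -47 and 3. No motif match was found for Mrpl15 or Mrps35, both among the largest rises, though not every member had a window. Each promoter shown is a stretch of 150 bases before a RefSeq start in GRCm38.p6, on the strand of the gene, 5′ to 3′. Capitals mark the motif. Positions were not converted between builds, so whether a start is that of the gene model behind the values was not tested. For Mrps6 the listed mm9 span begins at 92099839 on chromosome 16. Mrpl12 is chr11:120484463-120484612 on the plus strand, positions -174 to -25 from the start, Mrpl45 chr11:97315566-97315715 on the plus strand, Mrps22 chr9:98601680-98601829 on the minus strand, Mrpl20 chr4:155802728-155802877 on the plus strand and Mrps6 chr16:92058120-92058269 on the plus strand, positions -216 to -67; the other three run over positions -150 to -1.
Mrpl12: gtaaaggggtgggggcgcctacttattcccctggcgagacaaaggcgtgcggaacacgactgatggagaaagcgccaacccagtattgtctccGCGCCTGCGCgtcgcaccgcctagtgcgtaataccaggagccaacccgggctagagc
Mrpl45: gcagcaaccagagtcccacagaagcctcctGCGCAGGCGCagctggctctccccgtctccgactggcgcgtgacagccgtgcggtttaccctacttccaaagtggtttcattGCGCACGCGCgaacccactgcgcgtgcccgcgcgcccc
Mrps22: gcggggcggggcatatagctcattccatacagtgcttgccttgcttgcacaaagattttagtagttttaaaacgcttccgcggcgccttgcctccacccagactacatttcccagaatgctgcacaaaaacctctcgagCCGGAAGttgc
Mrpl20: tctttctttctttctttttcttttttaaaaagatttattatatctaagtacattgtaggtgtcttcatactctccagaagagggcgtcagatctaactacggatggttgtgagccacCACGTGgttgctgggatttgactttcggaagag
Mrps6: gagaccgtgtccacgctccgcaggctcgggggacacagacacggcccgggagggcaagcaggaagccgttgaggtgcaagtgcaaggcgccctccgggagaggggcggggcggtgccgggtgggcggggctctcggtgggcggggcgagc

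In the sequences above the NRF1 match of Mrpl12 begins at position -81, and Mrpl45 has matches at -120 and -38. The ETS match of Mrps22 begins at -11 and the E-box of Mrpl20 at -33. Members were also described by the motif they hold. All 12 members with the YY1 motif were higher at differentiation than at quiescence, as were all 12 with the NRF1 motif. With the ETS motif 21 of 24 were higher, against 70 of 76 over all members and 33.4% of all genes. At clonal expansion against quiescence 11 of 12 YY1-motif members were higher (median log2 fold change 0.88), 9 of 12 NRF1-motif members (0.47) and 15 of 24 ETS-motif members (0.74). Over all members 56 of 76 were higher (0.65), and 34.4% of all genes. The E-box, SP1 and CCAAT groups had medians of 0.65, 0.66 and 0.66. At differentiation against clonal expansion 5 of 12 YY1-motif members (0.17), 9 of 12 NRF1-motif members (0.63) and 14 of 24 ETS-motif members (0.39) were higher. Over all members 44 of 76 were higher (0.41), and 36.8% of all genes. The E-box, SP1 and CCAAT groups had medians of 0.39, 0.37 and 0.24. The differences between motif groups were not tested.

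The mRNAs of these factors and of the coactivators of mitochondrial biogenesis did not move as 1 group. Of 12 tested, 4 were higher and 2 lower at clonal expansion than at quiescence, where 34.4% of all genes were called in each direction. At differentiation against clonal expansion 5 were higher and 3 lower, where 36.8% and 36.2% of all genes were called higher and lower. The counts of higher genes were thus near the shares of all genes. Myc, a growth regulator, had 31529 and 30707 pseudo-counts at clonal expansion, against 3063 and 2795 at quiescence (log2 fold change 3.41, adjusted p = 5.22e-07). Pprc1, a growth-responsive coactivator of the PGC-1 family, had 32827 and 35553 at clonal expansion, against 14293 and 14947 at quiescence, and 7088 and 8829 at differentiation. Its relatives were high late: Ppargc1b had 7033 and 9502 at differentiation, against 105 and 153 at clonal expansion, and Ppargc1a had 2050 and 2060 at differentiation, against 149 and 135 at clonal expansion. Ppargc1a had been lower at clonal expansion than at quiescence (log2 fold change -2.46). Esrra, their nuclear receptor partner, was higher at differentiation than at quiescence by a log2 fold change of 1.68. Nrf1 itself had 4463 and 4038 at differentiation, against 4873 and 4673 at quiescence, a change that was not called (adjusted p = 0.176).

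A further 7 mitochondrial ribosomal proteins carry other symbols, and 5 of 7 were higher at clonal expansion than at quiescence and 5 of 7 at differentiation than at quiescence (median log2 fold changes 0.48 and 1.06). The first median was 0.242 with libraries scaled to the same total. Of all genes tested, 34.4% were called higher at clonal expansion than at quiescence and 33.4% at differentiation than at quiescence. Ptcd3, a pentatricopeptide repeat protein of the small subunit, had 23642 and 24530 pseudo-counts at differentiation, against 6049 and 6506 at quiescence (log2 fold change 1.94). Dap3, a GTP-binding protein of the small subunit, had 24521 and 23396 at differentiation, against 10961 and 8945 at quiescence (1.27). Ict1, a ribosome rescue factor built into the large subunit, and Gadd45gip1 were not called in that comparison.

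Of 24 factors tested that assemble the ribosome or modify its rRNA, 13 were higher and 3 lower at clonal expansion than at quiescence. In that comparison 34.4% of all genes were called in each direction. At differentiation against clonal expansion 8 were higher and 9 lower, where 36.8% and 36.2% of all genes were called higher and lower. Noa1, an assembly GTPase, had 9641 and 9231 pseudo-counts at clonal expansion, against 2523 and 2234 at quiescence, and 3650 and 4230 at differentiation. Mettl15 and Tfb1m, methyltransferases of the small-subunit rRNA, and the GTPase Mtg1 were higher at differentiation than at clonal expansion, by log2 fold changes of 1.99, 1.39 and 1.44. Mterfd2, which brings an rRNA methyltransferase to the large subunit, had 34146 and 44474 at differentiation, against 115090 and 127720 at clonal expansion (log2 fold change -1.64).

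Among translation factors and tRNA synthetases of mitochondria, more genes were called higher than lower at both later steps. Of all genes tested, 34.4% were called in each direction at clonal expansion against quiescence. At differentiation against clonal expansion 36.8% of all genes were called higher and 36.2% lower. Of 15 translation factors and mRNA-binding proteins tested, 8 were higher and 2 lower at clonal expansion than at quiescence, with a median log2 fold change of 0.32 that was 0.087 with libraries scaled to the same total. At the next step 12 were higher and 1 lower at differentiation than at clonal expansion (median 0.81). For differentiation against quiescence 13 were higher and 0 lower, where 33.4% and 32.9% of all genes were called higher and lower. The elongation factor Gfm1 had 21527 and 23012 pseudo-counts at differentiation, against 5353 and 5205 at quiescence (log2 fold change 2.08), and Taco1, a translational activator of COX1, and Gfm2, a recycling factor, had log2 fold changes of 1.99 and 1.95. Of 17 mitochondrial tRNA synthetases, 7 were higher and 3 lower at clonal expansion than at quiescence. The median log2 fold change there was 0.245, but 0.0103 with libraries scaled to the same total and 0.164 after quantile normalization. At differentiation against clonal expansion 12 synthetases were higher and 2 lower. Fars2 and Lars2 rose by log2 fold changes of 2.12 and 1.76 at that step. Yars2 instead rose at clonal expansion by 1.65 and was lower at differentiation than at clonal expansion by a log2 fold change of -0.58. Genes for transcription and upkeep of mitochondrial DNA were higher in 6 of 11 at clonal expansion than at quiescence, with 3 lower. Their median log2 fold change was 0.486, but 0.251 with libraries scaled to the same total. At differentiation against clonal expansion 4 of 11 were higher, near the 36.8% of all genes, and 0 were lower. Tfb2m, which helps the mitochondrial RNA polymerase start transcription, had the largest log2 fold change of them at clonal expansion, 0.99.

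Of 29 genes for mitochondrial protein import and matrix chaperones, 25 were higher and 0 lower at clonal expansion than at quiescence (median 0.92), led by the small Tim chaperone Timm8a1 and the chaperonin Hspd1 at log2 fold changes of 2.81 and 2.24. At differentiation against clonal expansion 13 of 29 were higher and 5 lower. Of all genes tested, 34.4% were called in each direction at clonal expansion against quiescence. At differentiation against clonal expansion 36.8% of all genes were called higher and 36.2% lower. Of 82 nuclear genes for oxidative phosphorylation subunits, 42 were higher and 6 lower at clonal expansion than at quiescence (median 0.34, but 0.103 at the same total and 0.188 after quantile normalization), and 73 were higher and 2 lower at differentiation than at clonal expansion (median 1.15), with Cox8b and Cox7a1, isoforms known from brown fat and muscle, at 9.79 and 6.39. The members had medians of 0.65 and 0.41 at these steps.

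Ribosomal proteins of the cytosol were lower at the last step. Of 79 tested, 35 were higher and 1 lower at clonal expansion than at quiescence, where 34.4% of all genes were called in each direction. The median of the 79 was 0.34, but 0.11 with libraries scaled to the same total and 0.0986 after quantile normalization. At differentiation against clonal expansion 0 were higher and 62 lower (limma, median -0.76), where 36.8% and 36.2% of all genes were called higher and lower. Rps2, Rps12 and Rpl12 had log2 fold changes of -1.95, -1.90 and -1.77 at that step. Their summed share of all pseudo-counts was 1.11% and 0.989% at differentiation, against 1.71% and 1.51% at clonal expansion and 1.88% and 1.45% at quiescence. Many cytosolic ribosomal protein genes have processed copies, so single values are uncertain. Under the alternatives for scaling and for transcript length, the median of this set stayed below 0 at that step and the median of the mitochondrial ribosomal protein genes stayed above it.

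**Figure D5:**
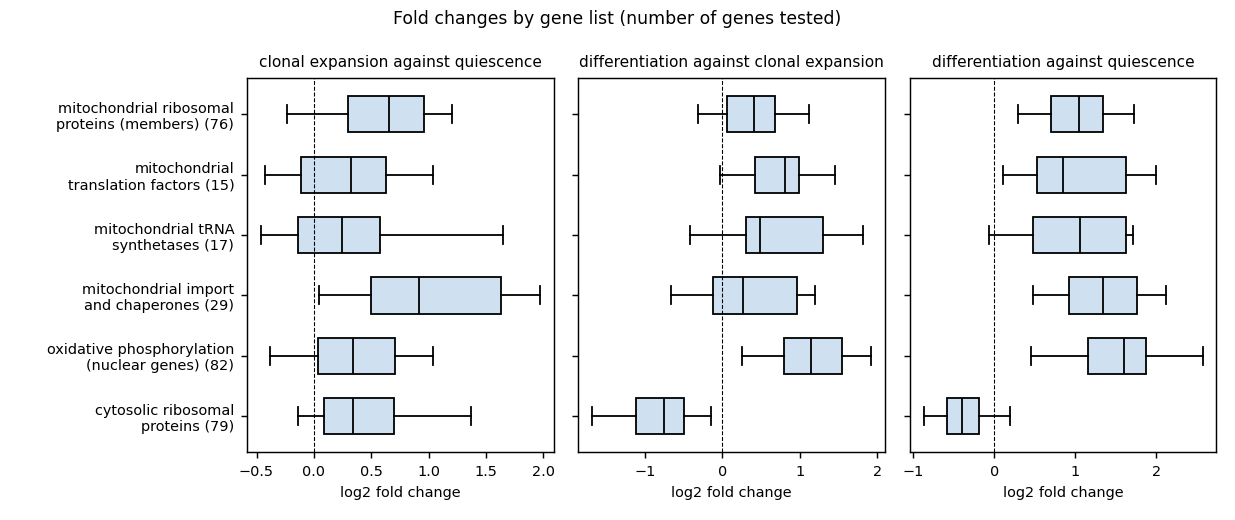
Boxes give the median and quartiles, and whiskers the 5th to 95th percentiles, of log2 fold changes (x axis, own range in each panel) over the genes of 6 lists (rows, with the number tested) in 3 comparisons. In the middle panel the mitochondrial ribosomal protein genes have a median of 0.41, oxidative phosphorylation genes 1.15 and cytosolic ribosomal protein genes -0.76.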

How the data were processed

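The study sequenced poly(A) RNA of 3T3-L1 cells as unstranded single reads. The deposited values are a signal per gene, pseudo-counts that the authors scaled to a common library size with edgeR; base calling used CASAVA 1.8.2 and the genome build was mm9, per the submitters' processing notes. The aligner, gene models and counting are not given in the sources used here, and whole reads could not be recovered, so no count model was used.

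The 14647 of 22798 genes whose 8-library mean reached 10 were put on the log2(pseudo-count + 1) scale and fitted by stage over all 8 libraries with limma 3.58.1 in R 4.3.3 (lmFit, eBayes with trend; 4 residual degrees of freedom, 9.778 in all). Tests were two-sided, p-values were adjusted by Benjamini-Hochberg over all genes tested, and the threshold was 0.05. Fold changes are on the log2(value + 1) scale, which understates changes of low genes. The fit was also run on simulated data with independent noise in every library. That setting lacks the shared shifts between libraries of a stage seen here, so it could not test their effect. Tables were made with Python 3.11.15, pandas 2.3.3 and numpy 2.4.6. Transcript lengths and exon overlaps came from GENCODE M21. Lengths covered 98.85% of genes tested, and exon overlaps were sought for the members only.

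The members and gene lists were chosen with earlier results of these data known. Named in full were up to 5 members per direction and comparison with the largest called changes, the 3 highest and 3 lowest by mean, the stalk, tunnel-exit and S18 members, Mrps12 and Mrps36; of other lists, up to 3 genes per direction. Nrf1 was added for its motif. Alternatives covered scaling, pseudocount, filter, variance trend, transcript length, a replicate block, the stages fitted and leaving out each library. No interval for counting error is given, since read counts are unknown.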

Additional observations from a re-analysis of the deposited data

How the results depend on the processing

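Of the calls on members, every alternative kept 47 of 58 for clonal expansion against quiescence, 32 of 50 for differentiation against clonal expansion, 64 of 71 for differentiation against quiescence, 59 of 69 for differentiation against proliferation and 0 of 5 for quiescence against proliferation. With 2 libraries per stage, a left-out library leaves its stage 1 sample, assumed to vary like the other stages. For quiescence against proliferation, genes called were 3472, against 1757 with no filter and 1942 with only the stages compared, and 1304 to 3536 when leaving out 1 library; members called were 5, against 10 at the same total, 3 with no filter, 3 with no mean-variance trend, 0 with only the stages compared and 11 with the length trend removed, and 0 to 15 without 1 library. The members' median log2 fold change there was -0.272 to -0.0162 without 1 library. At the same total the medians of clonal expansion against quiescence, differentiation against quiescence and differentiation against proliferation were 0.415, 0.807 and 0.621, against 0.65, 1.04 and 0.896; without 1 library the first ran over 0.526 to 0.839 and the second over 0.926 to 1.19. The median of differentiation against clonal expansion was 0.282 with the length trend removed. Deviations of same-number libraries correlated at 0.354 between quiescence and clonal expansion and at 0.134 between quiescence and differentiation, and at 0.0126 to 0.0717 in the other 4 pairs of stages, so the numbers were not taken to pair the libraries throughout. With the replicate block 5, 60, 51, 73 and 70 members were called in the 5 comparisons, and Mrps18a was called higher at clonal expansion than at quiescence (adjusted p = 0.0368). Directions of single genes not called turned in 11 cases, Mrpl23 under quantile normalization (0.0592 for clonal expansion against quiescence, -0.33 for differentiation against clonal expansion), Mrps6 with the length trend removed (-0.134 for differentiation against clonal expansion) and Mrpl11 at the same total (-0.0407 for differentiation against proliferation) among them. Without 1 library, quiescence against proliferation ran over -0.357 to 0.00566 for Mrpl11, -0.0607 to 0.254 for Mrps18a, -0.266 to 0.0615 for Mrpl23 and -0.258 to 0.101 for Mrpl55, differentiation against clonal expansion over -0.0686 to 0.136 for Mrps6, and for Mrpl23 differentiation against quiescence over -0.111 to 0.0282 and against proliferation over -0.307 to 0.0202. The causes were not tested. Depth is unknown, so counting error of low members such as Mrpl23 cannot be given.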
